A study of Mus musculus with 6 samples.

Results

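The sarcomeric myosin heavy chains described here are 8 genes, *Myh1*, *Myh2*, *Myh3*, *Myh4*, *Myh6*, *Myh7*, *Myh7b* and *Myh8*, found by symbol among the 24532 genes of the expression table. RNA-seq was done on gastrocnemius (GAS) muscle of male mice, labelled C57BL/6 and aged about 20 weeks, 3 in each group, each animal giving 1 library. The group labelled WT carried *Sirt6* flox/flox alleles without Cre, and the group labelled KO carried *Myl1-Cre* together with the same *Sirt6* flox/flox alleles, so that *Sirt6*, a nuclear deacetylase, would be removed where Cre was made. *Myl1-Cre* is driven from the locus of a fast myosin light chain and acts mainly in fast muscle fibers, and which fibers and cells kept an intact gene was not measured here. The comparison addresses whether the fiber-type makeup of the muscle, read here from its myosin heavy chain mRNAs, differed between these groups.

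Each muscle fiber is defined by the myosin heavy chain that it makes, the motor protein of the thick filament. In adult mouse limb muscle, *Myh7* encodes the slow chain of oxidative type I fibers, and *Myh2*, *Myh1* and *Myh4* encode the fast chains of type IIa, IIx and IIb fibers, in order of rising contraction speed and falling oxidative capacity. The mouse gastrocnemius is a mostly fast muscle with a small, more oxidative deep region. *Myh3* (embryonic) and *Myh8* (perinatal) are developmental chains that return during regeneration, *Myh6* is the alpha chain of the heart, and *Myh7b* is a slow-tonic chain. The intrafusal fibers of muscle spindles also make developmental, alpha-cardiac and slow-tonic chains.

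The counts on genes summed to between 44845763 and 63016899 per library, with WT 1 and WT 2 the shallowest, and the 8 genes took between 7.54% and 10.3% of them. *Sirt6* was at 2.77, 2.23 and 2.88 normalized counts (CPM, counts relative to library size after TMM normalization) in WT and at 7.81, 7.44 and 6.68 in the libraries labelled KO. It was therefore higher where it should have been deleted (log2 fold change 1.48, SE 0.17, edgeR adjusted p = 0.0113), which goes against the label, so groups are named below only by their labels. The deposited counts do not separate the floxed exons from the rest of the gene. *Myl1*, the locus that drives Cre, was at 8082, 8764 and 14401 CPM in WT and 8842, 9602 and 11742 in KO (log2 fold change -0.05, SE 0.28, edgeR adjusted p = 0.916). Of the 8 skeletal muscle markers (*Ckm*, *Acta1*, *Ttn*, *Neb*, *Des*, *Mb*, *Ryr1*, *Cacna1s*), all 8 were present in every library, whereas 5 of 8 cardiac markers (*Nppa*, *Nppb*, *Myl7*, *Mybpc3*, *Nkx2-5*) had 0 counts in all 6 libraries and the cardiac list summed to between 0.0684 and 0.615 CPM.

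The libraries also differed in which adult beta-globin gene received reads. *Hbb-bt* had 2766, 2457 and 1908 counts in WT 1, WT 2 and KO 2 and 0 counts in WT 3, KO 1 and KO 3. *Hbb-b2* had 534, 1514 and 949 counts in WT 3, KO 1 and KO 3 and 0 counts in WT 1, WT 2 and KO 2. These genes belong to different inherited beta-globin haplotypes of the mouse, and the split crosses the study's groups, with 2 WT and 1 KO library on the *Hbb-bt* side and 1 WT and 2 KO libraries on the *Hbb-b2* side. *Hbb-bs* had 6600, 5890 and 1321 counts in WT and 3039, 4109 and 2126 in KO. *Hbb-b1* had between 6 and 9 counts in every library, so neither of these genes was at 0 counts in any library. The level of *Hbb-bs* nevertheless separated the same sets. It was at 132.3, 124.9 and 67.8 CPM in WT 1, WT 2 and KO 2 and at 23.05, 51.9 and 38.6 in WT 3, KO 1 and KO 3. All 6 animals are labelled with 1 strain, and whether their genetic background differed was not tested. Fold changes of the members are given below with and without the split by *Hbb-bt* and *Hbb-b2*, which was noticed after the data were seen.

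The fast and developmental genes lie head to tail on the plus strand of chromosome 11 in the order *Myh3*, *Myh2*, *Myh1*, *Myh4*, *Myh8* (GRCm38, from 67078273 to 67308634). *Myh6* (54941921 to 54968017) and *Myh7* (54970684 to 54994626) are neighbors on the minus strand of chromosome 14, and *Myh7b* is at 155611243 to 155634307 on the plus strand of chromosome 2. The promoters of the 4 adult genes and of *Myh6* are shown because *Myh7* and *Myh6*, and *Myh2* and *Myh1*, were high and low in the same libraries, while *Myh4* went the other way. Each is the RefSeq window on GRCm38.p6 from 250 bases before to 50 bases after the annotated start, written 5′ to 3′ on the strand of the gene. The capitals mark matches on either strand to TATAAA (the TATA box), CANNTG (the E-box of the MyoD family), CATTCC (the M-CAT motif of TEAD factors), ACAAT (a core bound by Sox factors) and TGACG (a core of the cAMP response element).
*Myh7*, chr14:54994577-54994876, minus strand: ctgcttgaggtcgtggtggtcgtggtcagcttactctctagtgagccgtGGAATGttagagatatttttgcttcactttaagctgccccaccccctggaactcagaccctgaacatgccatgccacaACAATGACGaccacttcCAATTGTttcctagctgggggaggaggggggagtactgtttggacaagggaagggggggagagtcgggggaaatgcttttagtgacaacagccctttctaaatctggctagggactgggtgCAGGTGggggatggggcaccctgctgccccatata
*Myh6*, chr14:54966558-54966857, minus strand: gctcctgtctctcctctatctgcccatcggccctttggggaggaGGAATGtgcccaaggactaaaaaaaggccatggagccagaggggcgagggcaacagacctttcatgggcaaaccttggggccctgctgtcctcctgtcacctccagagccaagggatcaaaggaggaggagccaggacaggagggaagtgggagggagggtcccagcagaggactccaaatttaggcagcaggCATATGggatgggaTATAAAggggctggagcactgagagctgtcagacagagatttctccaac
*Myh2*, chr11:67170777-67171076, plus strand: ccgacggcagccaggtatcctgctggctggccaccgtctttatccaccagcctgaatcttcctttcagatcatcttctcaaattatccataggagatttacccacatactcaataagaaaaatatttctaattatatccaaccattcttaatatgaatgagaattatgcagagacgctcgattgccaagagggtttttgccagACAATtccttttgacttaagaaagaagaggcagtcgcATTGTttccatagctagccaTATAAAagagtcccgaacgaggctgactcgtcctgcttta
*Myh1*, chr11:67199852-67200151, plus strand: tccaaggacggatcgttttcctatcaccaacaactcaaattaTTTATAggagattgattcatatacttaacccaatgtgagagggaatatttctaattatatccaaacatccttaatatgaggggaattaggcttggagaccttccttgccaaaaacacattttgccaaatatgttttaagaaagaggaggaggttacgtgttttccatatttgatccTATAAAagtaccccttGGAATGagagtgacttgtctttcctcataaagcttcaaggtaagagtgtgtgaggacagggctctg
*Myh4*, chr11:67237562-67237861, plus strand: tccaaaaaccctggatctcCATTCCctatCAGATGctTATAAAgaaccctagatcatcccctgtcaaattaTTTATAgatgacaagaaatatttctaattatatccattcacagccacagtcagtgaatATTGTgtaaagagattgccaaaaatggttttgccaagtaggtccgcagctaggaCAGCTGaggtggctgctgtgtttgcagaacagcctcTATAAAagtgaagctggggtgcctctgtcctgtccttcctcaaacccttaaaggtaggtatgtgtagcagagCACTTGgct

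TATAAA was in the windows of 6 of the 8 genes, all except *Myh7* and *Myh7b*, and in 13.6% of the 32851 promoters of the table. For *Myh7* 2 promoters are listed, and motifs are given only for the first, the window shown above. In *Myh1*, *Myh3* and *Myh4* a match began 32, 29 and 31 bases before the start, whereas in *Myh2* and *Myh6* it lay just after the annotated start. CATTCC was in 4 windows (*Myh1*, *Myh4*, *Myh6*, *Myh7*; 14.7% of all promoters), and ACAAT in 4 (*Myh2*, *Myh4*, *Myh7*, *Myh7b*; 31.0%). CANNTG was in 6 of the 8 windows, against 72.3% of all promoters. TGACG was in the *Myh7* window alone among the 8 (20.8% of all promoters), where it overlaps an ACAAT match, and a CANNTG match there overlaps the second ACAAT match. A spaced MEF2-like motif was in 0 of the 8 windows and in 3.69% of all promoters.

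Introns of 3 members hold microRNAs, which are shown because they leave the same primary transcript as their host mRNA. The capitals mark the seed, bases 2 to 8 of the mature RefSeq sequence.
mmu-miR-208b-3p (intron after exon 31 of *Myh7*): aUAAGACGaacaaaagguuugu
mmu-miR-208a-3p (intron after exon 29 of *Myh6*): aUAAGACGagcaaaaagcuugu
mmu-miR-499-5p (intron after exon 19 of *Myh7b*): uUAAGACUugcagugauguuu
The miR-208 pair shares 1 seed, and miR-499-5p has another. The rows of their hairpin genes held at most 1 count in any library, so the host mRNA was measured here and the microRNAs were not.

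The members are close paralogs, which bears on how short reads can be assigned to them. Of the windows of 100 bases (the read length) in the longest transcript of each gene, 11.4% were identical in *Myh6* and *Myh7*, whose transcripts match at 91.3% of aligned bases. For *Myh1*, *Myh2*, *Myh8* and *Myh4* the share of windows found in another member was 9.69%, 9.17%, 5.17% and 3.85%, and for *Myh3* and *Myh7b* it was 0%. The longest run common to *Myh7* and *Myh6* spans 245 bases. It lies in exons 32 (chr14:54975234-54975347) and 33 (chr14:54974947-54975077) of the 41 exons of *Myh7* and in exons 30 and 31 of the 39 exons of *Myh6*. It is shown on the coding strand because a single read inside it fits both genes. The windows stand for single reads, whereas these libraries were read as pairs, and a mate outside a shared stretch may still place the pair.
*Myh7* and *Myh6*: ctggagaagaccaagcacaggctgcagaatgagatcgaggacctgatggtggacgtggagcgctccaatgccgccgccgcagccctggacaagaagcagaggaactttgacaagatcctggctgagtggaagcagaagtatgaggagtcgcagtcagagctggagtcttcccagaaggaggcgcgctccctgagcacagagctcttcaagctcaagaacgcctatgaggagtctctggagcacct

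*Myh4* was the main myosin heavy chain mRNA in every library. In TPM, which is scaled to transcript length and so allows levels of different genes to be set side by side, it was at 21118, 20494 and 30694 in WT and at 31034, 26672 and 33330 in the libraries labelled KO, 14.1-fold above the next member on average over the 6 libraries. *Myh1* (1931 TPM on average) was next and above *Myh2* (942.5) in 6 of 6 libraries. *Myh2* was above *Myh8* (428.3) in 4 of 6 libraries, and *Myh8* above *Myh7* (190.0) in 5 of 6, so these neighbors in the order were not separated in every library. *Myh7* was 18.1-fold above *Myh6* (10.5 TPM on average), and *Myh6* and *Myh3* (10.3) changed places, with *Myh6* the higher in 2 of 6 libraries. *Myh7b* (1.49) was last in all 6.

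**Figure D1:**
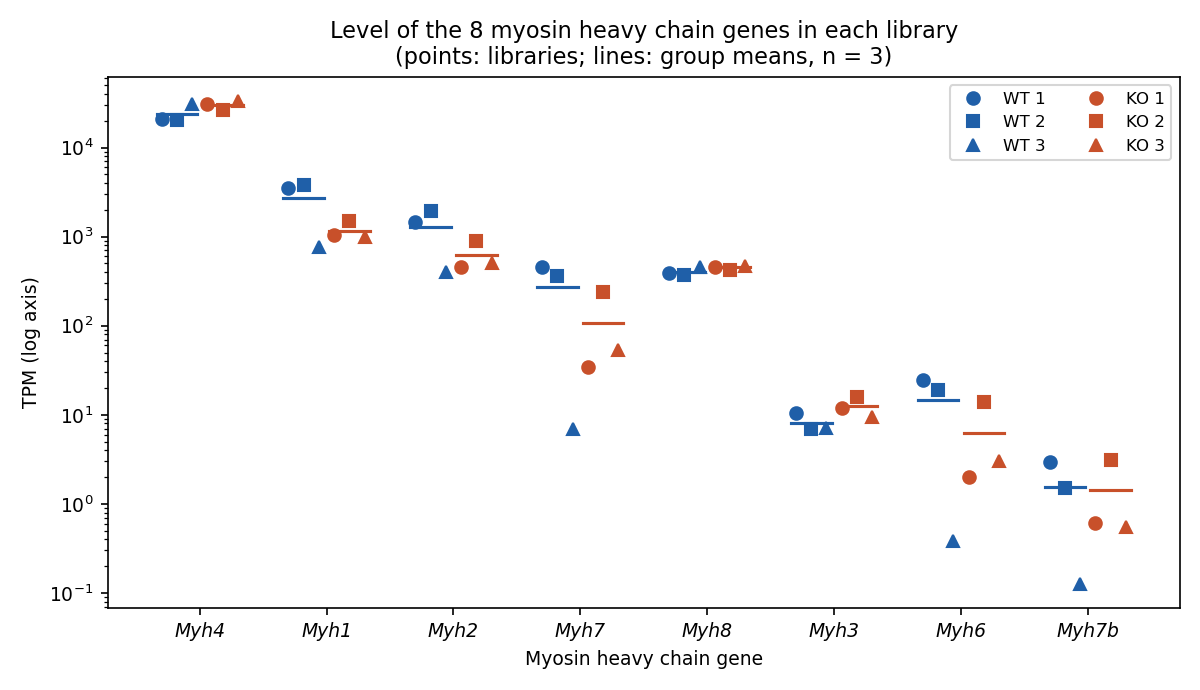
Level of the 8 myosin heavy chain genes in each library, in TPM on a log axis, with 1 point per library and a line at each group's mean (n = 3). *Myh7*, *Myh6* and *Myh7b* spread furthest within the groups, with WT 3 the lowest point of each, and *Myh4* is the highest gene in all 6 libraries.

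Together the 8 mRNAs made up 2.70%, 2.70% and 3.24% of all TPM in WT and 3.31%, 2.98% and 3.54% in KO (exact permutation p = 0.2, two-sided, where 3 libraries against 3 allow no p under 0.1). As a share of this family TPM, *Myh4* was at 78.3%, 75.9% and 94.9% in WT and at 94.0%, 89.7% and 94.2% in KO. WT 3 was thus above every KO library and WT 1 and WT 2 below them, so the groups overlapped. The means were 83.1% ± 10.3 in WT and 92.6% ± 2.56 in KO (SD, n = 3, exact permutation p = 0.4).

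What *Myh4* did not take went mainly to *Myh1*, the IIx chain, with 12.97%, 14.1% and 2.39% of the family in WT and 3.12%, 5.01% and 2.79% in KO (9.82% ± 6.46 against 3.64% ± 1.198, SD, n = 3, exact permutation p = 0.4). *Myh2*, the IIa chain, had 5.46%, 7.18% and 1.23% in WT and 1.37%, 2.97% and 1.45% in KO (4.62% ± 3.06 against 1.93% ± 0.900, SD, n = 3, exact permutation p = 0.4). *Myh7*, the slow chain, had 1.67%, 1.32% and 0.0214% in WT and 0.105%, 0.797% and 0.151% in KO (1.01% ± 0.870 against 0.351% ± 0.387, SD, n = 3, exact permutation p = 0.4). In all 3 genes WT 1 and WT 2 were the highest libraries, KO 2 came next, and WT 3 was the lowest. *Myh8* was the exception to this spread, with between 1.33% and 1.43% of the family in every library.

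**Figure D2:**
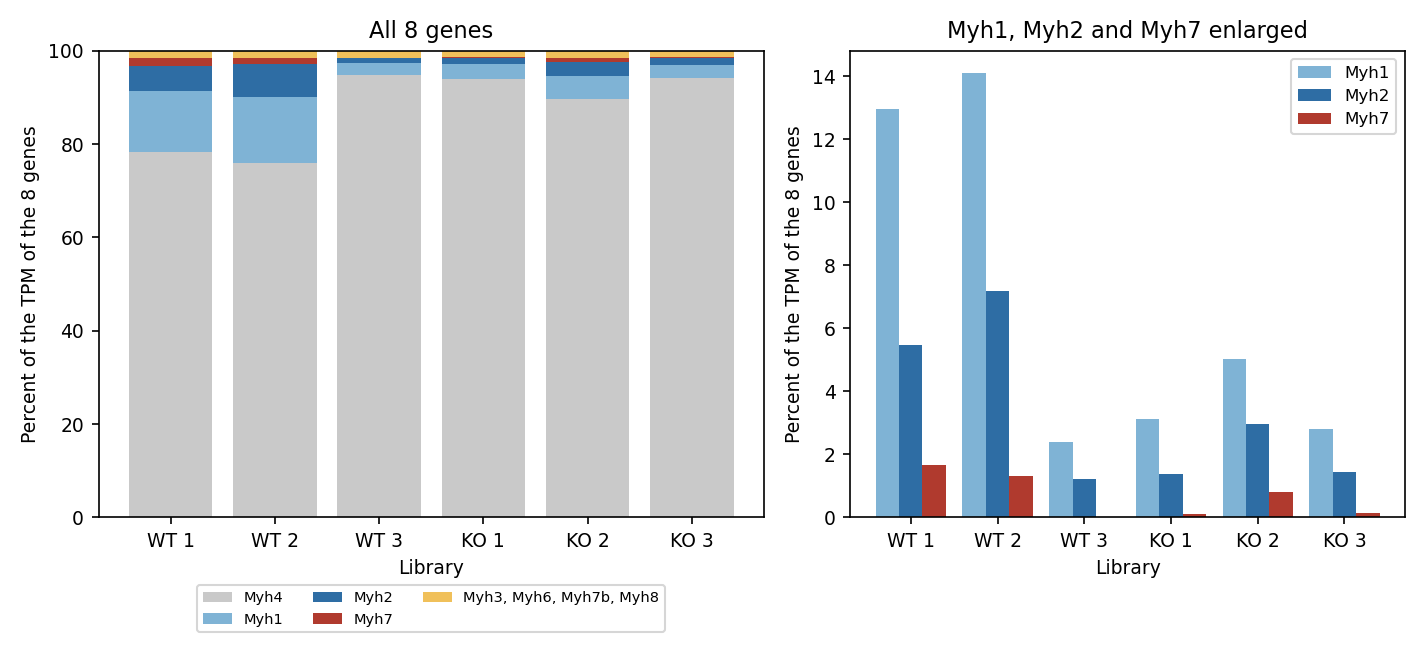
Share of the summed TPM of the 8 genes taken by each, in percent, as stacked bars per library on the left and as single bars for *Myh1*, *Myh2* and *Myh7* on the right. *Myh4* takes from 75.9% (WT 2) to 94.9% (WT 3), and the *Myh7* share is lowest in WT 3 (0.0214%).

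Between the groups, 0 of the 8 members passed edgeR's quasi-likelihood test at an adjusted p under 0.05, against 16.2% of the 13801 genes tested (8.39% lower and 7.85% higher in KO). All 8 passed the filter on low counts. At an unadjusted p under 0.05 there was 1 member (*Myh3*), against 4875 of all 13801 genes tested. DESeq2 called 1 (*Myh3*), against 3399 of 13922 genes. Limma on FPKM (pseudocount 1) called 0, against 2592 of 10683 genes. These counts over all genes also apply to the lists below. The log2 fold changes of KO against WT were below 0 for 4 members (*Myh1*, *Myh2*, *Myh6*, *Myh7*) and above 0 for 4 (*Myh3*, *Myh4*, *Myh7b*, *Myh8*). In CPM the groups did not overlap for 1 member (*Myh3*), against 40.0% of all genes tested (20.3% higher and 19.6% lower in KO).

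**Figure D3:**
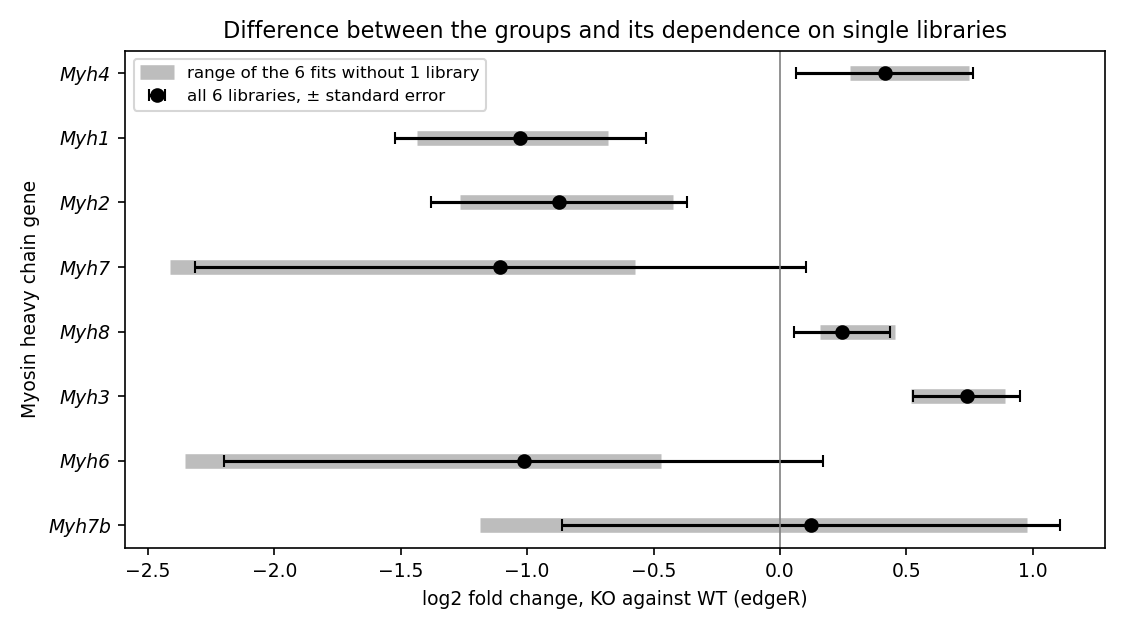
Log2 fold change of KO against WT for each gene from edgeR over all 6 libraries (points, with the standard error as bars) and the range of the 6 fits that each leave out 1 library (grey bands). The grey band of *Myh7b* crosses 0, from -1.19 to 0.98, and that of *Myh7* runs from -2.41 to -0.57.

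*Myh7*, the slow chain of type I fibers, was at 1138, 958.1 and 21.7 CPM in WT and at 100.1, 720.3 and 162.9 in the libraries labelled KO. WT 3 was the lowest library and WT 1 the highest, a 52.3-fold range within WT and 7.20-fold within KO, and the KO libraries lay between. The log2 fold change was -1.11 (SE 1.21, edgeR adjusted p = 0.547). Among the 13801 genes tested, *Myh7* ranked 4 by its spread within groups (SD of log2 CPM), *Myh6* 15, *Myh7b* 53, *Myh2* 156 and *Myh1* 160. In bulk tissue fewer fibers of a type and less of its mRNA in each fiber cannot be told apart.

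Leaving out single libraries changed the size of the *Myh7* log2 fold change but not its sign, from -2.41 without KO 2 to -0.57 without WT 1. The direction differed between the sides of the beta-globin split, which was noticed after the data were seen. Among the libraries with *Hbb-bt* counts, KO 2 was below WT 1 and WT 2 (log2 ratio of means -0.54), whereas among those with *Hbb-b2* counts both KO libraries were above WT 3 (2.60). With that split as a covariate the log2 fold change turned to 1.01 (edgeR adjusted p = 0.382).

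*Myh2*, the fast oxidative IIa chain, was at 3732, 5223 and 1256 CPM in WT and 1313, 2694 and 1571 in KO. *Myh1*, the IIx chain that lies next to it, was at 8767, 10153 and 2409 CPM in WT and 2961, 4505 and 3000 in KO. For both genes WT 1 and WT 2 were above every KO library and WT 3 was below every KO library. The log2 fold changes were -0.87 for *Myh2* (SE 0.51, edgeR adjusted p = 0.256) and -1.03 for *Myh1* (SE 0.50, edgeR adjusted p = 0.182). Without WT 3 *Myh2* fell by 1.27 in KO on the log2 scale (edgeR adjusted p = 0.0298), and *Myh1* fell by 1.44 (edgeR adjusted p = 0.00755). The fit without WT 3 called 4582 of the 14115 genes it tested, against 2242 of 13801 with all 6 libraries. With the beta-globin split as a covariate the log2 fold changes were -0.27 and -0.38 (edgeR adjusted p = 0.501 and 0.429), and among the *Hbb-b2* libraries alone KO was above WT by 0.20 and 0.31.

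*Myh4*, the chain of the fastest, glycolytic IIb fibers, was at 53097, 54839 and 95958 CPM in WT and at 89370, 80840 and 101492 in KO. WT 1 and WT 2 were below every KO library, and WT 3 was above 2 of the 3. The log2 fold change was 0.41 (SE 0.35, edgeR adjusted p = 0.427), and without WT 3 *Myh4* rose by 0.75 (edgeR adjusted p = 0.0211). Within the *Hbb-b2* libraries the log2 ratio was -0.01, against 0.58 within the *Hbb-bt* libraries, and with the split as a covariate the log2 fold change was 0.29 (edgeR adjusted p = 0.408).

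Ratios of 2 chains within a library do not depend on the scaling between libraries. Over the 6 pairs of *Myh7*, *Myh2*, *Myh1* and *Myh4*, exact permutation p-values lay between 0.4 and 0.9, and all 6 were 0.9 after adjustment over the pairs. The log2 ratio of *Myh1* to *Myh4* was -2.59, -2.43 and -5.31 in WT and -4.91, -4.16 and -5.08 in KO, with WT 3 again the lowest and WT 1 and WT 2 the highest. The ratio of *Myh7* to *Myh2* was -1.71, -2.44 and -5.84 in WT and -3.71, -1.90 and -3.26 in KO, so WT held both the lowest library and the highest. The steadiest of the 6 ratios was that of *Myh2* to *Myh1*, between -1.25 and -0.76 in all libraries.

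*Myh3*, the embryonic chain, was at 25.8, 18.3 and 21.9 CPM in WT and at 33.7, 47.8 and 28.8 in KO. Its 3 KO libraries were above its 3 WT libraries in CPM, with KO 2 the highest, whereas in TPM WT 1 (10.4) was above KO 3 (9.54). The log2 fold change of 0.74 (SE 0.21) just missed the threshold with edgeR (adjusted p = 0.0535). DESeq2 (adjusted p = 0.00874), a filter of at least 10 counts in every library (edgeR adjusted p = 0.049) and the beta-globin split as a covariate (edgeR adjusted p = 0.0273) each called it higher in KO. These were 3 of 16 alternatives, and the covariate was chosen after the data were seen. The other 13 did not call it. With edgeR the adjusted p was 0.0501 with DESeq2 size factors, 0.0676 with no filter, 0.0879 with a replicate block and 0.117 with the GC trend removed. With limma on FPKM it was 0.0568 and 0.0634 (pseudocount 1 and 0.1). Leaving out 1 library at a time gave adjusted p-values between 0.0681 and 0.156 with edgeR. *Myh3* shared 0% of its windows with another member.

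*Myh8*, the perinatal chain, was at 990.2, 1012 and 1463 CPM in WT and 1342, 1312 and 1457 in KO. It had the smallest spread of the 8 genes, and WT 3 was above all 3 KO libraries (log2 fold change 0.25, SE 0.19, edgeR adjusted p = 0.383). Without WT 3 it rose by 0.46 (edgeR adjusted p = 0.0203). With the beta-globin split as a covariate the log2 fold change was 0.16 (edgeR adjusted p = 0.445), and the log2 ratios were 0.39 within the *Hbb-bt* libraries and -0.06 within the *Hbb-b2* libraries. Its level followed that of *Myh4*: its count was 1.87%, 1.85% and 1.53% of the *Myh4* count in WT and 1.501%, 1.62% and 1.44% in KO. *Myh8* and *Myh4* share a run of 164 identical bases, and how many *Myh8* counts came from *Myh4* mRNA was not tested.

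Of 8 other genes of embryonic and regenerating muscle, 6 were found and tested. Of these 4 had a log2 fold change above 0 (median 0.44), among them *Actc1* (1.71, edgeR adjusted p = 0.266) and *Myl4* (1.14, edgeR adjusted p = 0.0908). By edgeR 1 was called, against 16.2% of all genes, and by DESeq2 2, against 3399 of 13922 genes. The called gene, *Myog*, the myogenic factor of differentiating myoblasts, was at 22.1, 27.7 and 22.4 CPM in WT and 15.6, 9.14 and 12.3 in KO (log2 fold change -0.96, SE 0.20, edgeR adjusted p = 0.0246). Of 4 satellite cell markers 3 were called, against 16.2% of all genes, all 3 higher in KO, namely *Pax7* (log2 fold change 1.28), *Myf5* (1.33) and *Cdh15* (0.97), with edgeR adjusted p-values of 0.0299, 0.0225 and 0.0243. The 4 markers summed to 18.4, 18.8 and 25.4 CPM in WT and 45.1, 33.5 and 41.9 in KO. Most of this sum was *Cdh15*, at 14.9, 14.9 and 23.0 CPM in WT and 39.4, 29.0 and 35.2 in KO. The groups did not overlap in the sum, as in 40.0% of all genes tested. The fourth marker, *Calcr*, had a log2 fold change of -0.63 (edgeR adjusted p = 0.256). *Myog* and the 3 markers kept their sign but missed the threshold without KO 1, KO 3, WT 1 or WT 2, and *Myog* and *Pax7* also without KO 2 (highest edgeR adjusted p 0.124). The part of these cells in the *Myh3* level was not tested.

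*Myh6*, the alpha-cardiac chain, was at 62.3, 51.8 and 1.204 CPM in WT and at 5.74, 42.1 and 9.19 in KO (log2 fold change -1.01, SE 1.19, edgeR adjusted p = 0.575). This is the order of *Myh7* over the libraries. The *Myh6* count was 5.48%, 5.41% and 5.54% of the *Myh7* count in WT and 5.74%, 5.84% and 5.64% in KO, a 1.08-fold range, while the *Myh7* count itself spanned 45.5-fold. The shares were above the WT libraries in all 3 KO libraries (5.47% ± 0.0656 against 5.74% ± 0.0997, SD, n = 3, exact permutation p = 0.1, the smallest that the design allows). The exact 95% binomial interval in WT 3, from 69 *Myh6* counts, runs from 4.28% to 7.06% and covers the other 5 values, and it holds counting error only.

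Taken without their mates, reads in the 245-base run printed above, and in the other identical windows, fit *Myh6* and *Myh7* alike. How many *Myh6* counts came from *Myh7* mRNA was not tested. With the beta-globin split as a covariate the *Myh6* log2 fold change turned to 0.87 (edgeR adjusted p = 0.397).

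**Figure D4:**
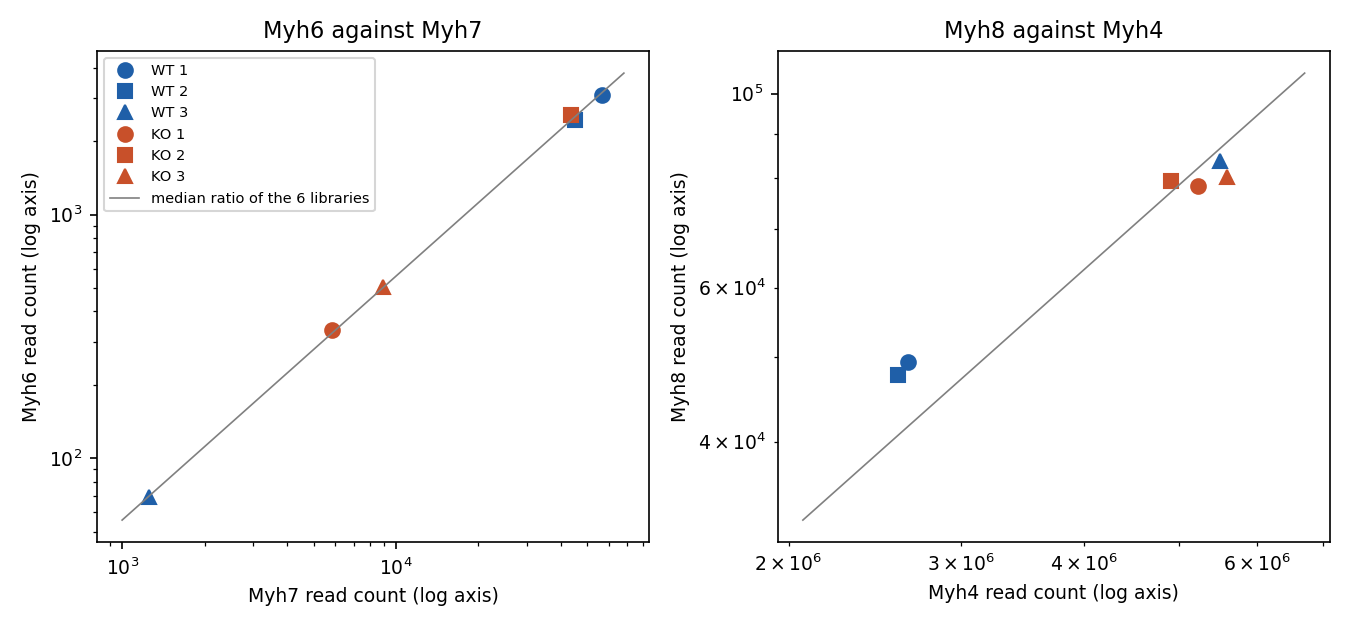
Read counts of *Myh6* against *Myh7* (left) and of *Myh8* against *Myh4* (right), 1 point per library on log axes, with a line at the median ratio of the 6 libraries. The *Myh6* points lie along the line, with ratios from 5.41% to 5.84%, and those of *Myh8* range from 1.44% to 1.86% of *Myh4*.

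*Myh7b*, the slow-tonic chain that hosts miR-499, was at 7.64, 4.12 and 0.419 CPM in WT and 1.81, 9.68 and 1.71 in KO, from 24 to 587 counts a library. KO 2 was the highest library and WT 3 the lowest (log2 fold change 0.12, SE 0.99, edgeR adjusted p = 0.940). Unlike *Myh6* it did not keep a fixed ratio to *Myh7*, with TPM between 0.422% and 1.83% of the *Myh7* TPM. The sign of its difference changed without KO 2 (log2 fold change -1.19) and without WT 3 (-0.41). With the beta-globin split as a covariate it was 1.26 (edgeR adjusted p = 0.061), and KO was above WT on both sides of the split (log2 ratios 0.72 and 2.07).

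Across the 6 libraries, the members fell into genes that were high in WT 1, WT 2 and KO 2 and genes that were low there. As a description over 6 points that share library and animal, Pearson's r of log2 CPM was 0.998 for *Myh6* with *Myh7*, 0.979 for *Myh1* with *Myh2* and 0.995 for *Myh4* with *Myh8*, and it was -0.972 for *Myh1* with *Myh4*. *Myh3* stood apart, with r between -0.325 and 0.416 to the other 7. The 3 libraries with *Hbb-bt* counts did not overlap the 3 with *Hbb-b2* counts for 7 of the 8 members (all except *Myh3*), against 18.6% of all genes tested. *Myh7* averaged 938.7 CPM on the *Hbb-bt* side and 94.9 on the other, *Myh1* 7808 and 2790, and *Myh4* 62925 and 95607. The part of the split in these levels was not tested.

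The genes outside the family whose log2 CPM was most like that of an adult chain were taken from 7238 genes with a mean of at least 10 CPM. For *Myh7* they were *Tnnc1* (r = 0.999), *Tnni1* (0.998) and *Tnnt1* (0.994), the 3 subunits of slow troponin, which sets calcium control of the thin filament in slow fibers. *Tnnc1* was at 227.1, 172.6 and 3.61 CPM in WT and 16.7, 139.4 and 29.3 in KO. For *Myh2* they were *Gbp6*, *Dgat2* (the last step of triglyceride synthesis) and *Ephx2* (0.998 to 0.995), for *Myh1* *Palm*, *Sbf2* and *Adgre5* (0.997 to 0.995), and for *Myh4* *Mtmr3*, *Gpd1* (the cytosolic glycerol-3-phosphate dehydrogenase) and *Ssr3* (0.999 to 0.996). The edgeR adjusted p-values of these 12 genes between the groups lay between 0.161 and 0.663.

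The sarcomeric partners of the chains were summed by fiber type. The 9 slow partners (*Tnni1*, *Tnnc1*, *Tnnt1*, *Myl2*, *Myl3*, *Myl6b*, *Tpm3*, *Myom3*, *Myoz2*) summed to 2246, 1940 and 78.5 CPM in WT and to 175.9, 1306 and 265.4 in KO. The same libraries were high and low as for *Myh7*, and 0 of 9 were called by edgeR, also at an unadjusted p under 0.05, with 0 by DESeq2 and 0 by limma (9 of 9 fold changes below 0, median log2 fold change -1.26 against -0.02 over all genes tested). Within the *Hbb-bt* libraries the log2 ratio of the slow sum was -0.68 and within the *Hbb-b2* libraries 1.49. The 8 fast partners (*Tnni2*, *Tnnc2*, *Tnnt3*, *Myl1*, *Mylpf*, *Actn3*, *Mybpc2*, *Myom2*) summed to 55166, 60872 and 91847 CPM in WT and to 85573, 78009 and 86713 in KO. They were low in WT 1 and WT 2, as *Myh4* was, and 0 of 8 were called by edgeR (1 at an unadjusted p under 0.05, 1 by DESeq2 and 1 by limma, median log2 fold change 0.33). Over all genes these last 3 criteria were met by 4875 of 13801, 3399 of 13922 and 2592 of 10683. Without WT 3 edgeR called 5 of the 8 fast partners and 0 of the 9 slow partners. That fit called 4582 of the 14115 genes it tested.

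**Figure D5:**
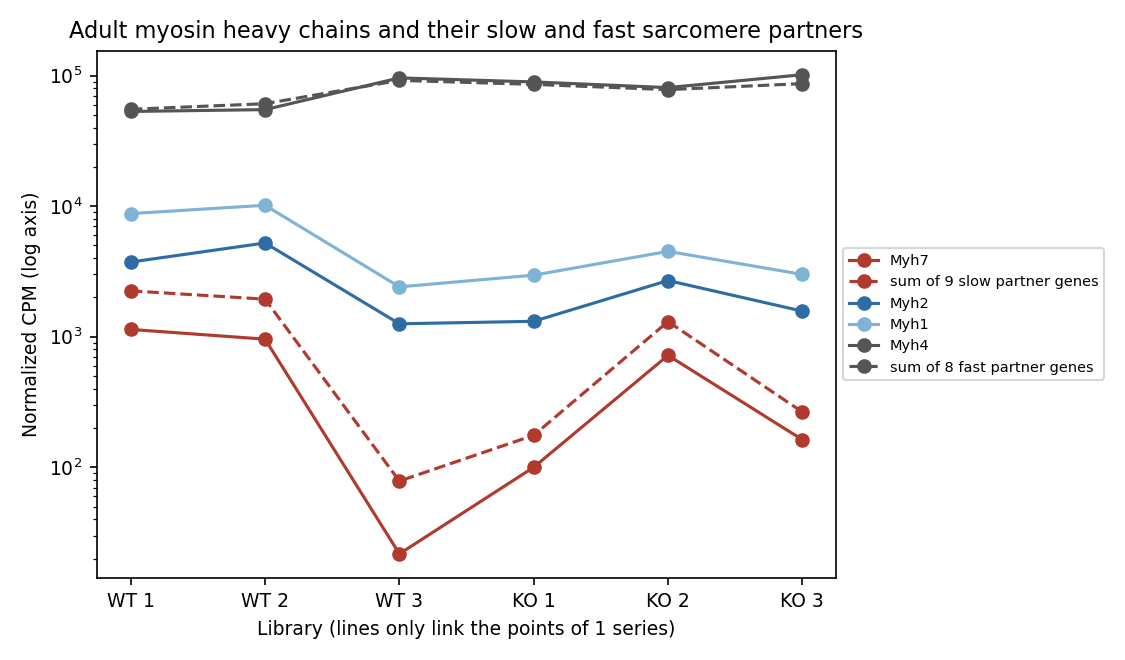
Normalized CPM on a log axis of the 4 adult myosin heavy chains (solid) and of the summed slow and fast sarcomere partners (dashed) in each library, where lines only link the points of 1 series. *Myh7* and the slow sum are both lowest in WT 3 (21.7 and 78.5 CPM) and both high in WT 1, WT 2 and KO 2.

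Of 18 genes known to regulate myosin heavy chain genes, 3 were called, a share near the 16.2% of all genes. *Maf*, a large Maf factor that acts on the IIb gene, was at 265.4, 280.3 and 284.6 CPM in WT and 124.0, 85.2 and 88.5 in KO, lower in all 3 (log2 fold change -1.48, SE 0.17, edgeR adjusted p = 0.0110). Its relative *Mafa* was at 9.52, 11.5 and 17.7 CPM in WT and 37.4, 27.2 and 35.3 in KO, higher in all 3 (log2 fold change 1.36, SE 0.24, edgeR adjusted p = 0.0171). *Purb*, a repressor of slow and cardiac myosin genes, was at 60.4, 55.0 and 52.7 CPM in WT and 36.4, 31.3 and 31.3 in KO (log2 fold change -0.76, SE 0.11, edgeR adjusted p = 0.0132). The other 15 did not pass, among them *Sox6*, a repressor of slow fiber genes that was at 142.0, 135.7 and 193.6 CPM in WT and 171.5, 131.3 and 145.8 in KO (log2 fold change -0.07, SE 0.17, edgeR adjusted p = 0.799).

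The groups did not overlap for 8 of the 18 regulators, these 3 included, against 40.0% of all genes tested. Over 16 alternatives each kept its sign, and *Maf* passed the test in 15, *Purb* in 14 and *Mafa* in 12. All 3 missed it without KO 3 (edgeR adjusted p = 0.0685, 0.0723 and 0.0818), *Purb* and *Mafa* also without KO 1 and *Mafa* also without WT 1 or WT 2. All 3 passed with the beta-globin split as a covariate.

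Among 7 genes of myosin folding, phosphorylation and the M-band, 2 were called, against 16.2% of all genes. *Hsp90aa1*, a chaperone that folds the myosin head together with Unc45b, was at 591.3, 199.2 and 132.9 CPM in WT and 44.4, 60.4 and 44.3 in KO (log2 fold change -2.63, SE 0.54, edgeR adjusted p = 0.0229). *Mybph*, a thick-filament protein, was at 45.7, 210.0 and 224.9 CPM in WT and 1003, 475.5 and 846.2 in KO (log2 fold change 2.27, SE 0.58, edgeR adjusted p = 0.0396). *Unc45b*, the myosin-specific co-chaperone, was at 602.5, 368.1 and 505.4 CPM in WT and 465.5, 460.6 and 494.1 in KO (log2 fold change -0.06, edgeR adjusted p = 0.858). The calls of *Hsp90aa1* and *Mybph* were lost without any 1 of WT 2, KO 1, KO 2 and KO 3 (highest edgeR adjusted p 0.0984 and 0.120), with the sign kept.

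The other class II myosin heavy chains, which serve nonmuscle and smooth muscle cells or specialized muscle, gave 0 calls by edgeR among 5 tested genes of a list of 6 (*Myh9*, *Myh10*, *Myh11*, *Myh13*, *Myh14*, *Myh15*), against 16.2% of all genes. At an unadjusted p under 0.05 there was 1, *Myh14* (edgeR adjusted p = 0.0542), against 4875 of all 13801 genes tested. DESeq2 and limma called 1 each, among 3399 of 13922 and 2592 of 10683 genes in all. Without WT 3 edgeR called 4, among 4582 of 14115 genes in all. *Myh14* was at 49.5, 44.1 and 52.5 CPM in WT and 73.2, 68.8 and 57.2 in KO. *Myh13*, the extraocular chain that follows *Myh8* on chromosome 11, was at 16.04, 13.6 and 31.2 CPM in WT and 22.5, 33.5 and 24.3 in KO. Its groups overlapped, and WT 3 was again far above the other 2 WT libraries.

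Of the genes annotated inside or within 50 kb of the 3 loci, 13 were tested and 0 were called by edgeR, against 16.2% of all genes. At an unadjusted p under 0.05 there were 4, against 4875 of all 13801 genes tested. DESeq2 and limma called 1 each, among 3399 of 13922 and 2592 of 10683 genes in all. Without WT 3 edgeR called 2, among 4582 of 14115 genes in all. In CPM the groups did not overlap for 6 of the 13, against 40.0% of all genes tested. Among them 2310065F04Rik, a noncoding transcript between *Myh3* and *Myh2* (chr11:67112461-67120080), was at 137.0, 109.5 and 118.6 CPM in WT and 226.8, 149.8 and 147.3 in KO (log2 fold change 0.52, SE 0.19, edgeR adjusted p = 0.104). *Myhas*, an antisense transcript (chr11:67224196-67237281), overlaps the end of *Myh1* (67224577) and otherwise lies between *Myh1* and *Myh4*. It was at 1.30, 1.15 and 1.19 CPM in WT and 2.15, 1.67 and 1.83 in KO (log2 fold change 0.64, SE 0.23, edgeR adjusted p = 0.0946). Both sets of KO libraries were above the WT libraries, as in 20.3% of all genes tested. The rest of the non-overlapping neighbors were also higher in KO. They were *Slc22a17* (log2 fold change 0.94, edgeR adjusted p = 0.0879), *Tmem220* (0.64, edgeR adjusted p = 0.105), *Trpc4ap* (0.22, edgeR adjusted p = 0.189) and *Ngdn* (0.17, edgeR adjusted p = 0.296). It is not stated whether counting used the strand, so antisense and sense reads may not be separated.

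Markers of other cells moved with some of the same libraries. The 5 erythroid markers summed to 297.0, 290.7 and 46.6 CPM in WT and to 109.8, 180.8 and 80.2 in KO, with WT 1 and WT 2 the highest and KO 2 next, as for *Myh1*. This list holds *Hbb-bt*, which defines the beta-globin split, and not *Hbb-b2*. *Hbb-bt* was at 55.5, 52.1 and 31.5 CPM in WT 1, WT 2 and KO 2 and at 0 in WT 3, KO 1 and KO 3. The erythroid sum is therefore partly set by the split. The rest of the list (*Hba-a1*, *Hba-a2*, *Hbb-bs*, *Alas2*) was also higher in each *Hbb-bt* library than in any *Hbb-b2* library. *Hba-a1* was at 100.7, 106.8 and 76.4 CPM in WT 1, WT 2 and KO 2 and at 21.9, 55.2 and 39.8 in WT 3, KO 1 and KO 3. Of all genes tested, 18.6% did not overlap between these sets, in either direction. The 5 adipocyte markers summed to 43.9, 52.5 and 4.45 in WT and 14.5, 118.4 and 52.8 in KO. WT 3 was lowest in both, as it was for *Myh7*, *Myh2* and *Myh1*. In each list 0 of 5 genes were called by edgeR, also at an unadjusted p under 0.05, with 0 by DESeq2 and 0 by limma. Without WT 3 edgeR called 3 erythroid markers, among 4582 of all 14115 genes. With the beta-globin split as a covariate it called 3 adipocyte markers and 1 erythroid marker, among 2504 of all 13801 genes. The 5 smooth muscle markers gave 1 lower gene (*Cnn1*, log2 fold change -2.02) and 1 higher gene (*Smtn*, 0.45), against 16.2% of all genes, with the list summing to between 76.3 and 135.0 CPM. Over 16 alternatives *Cnn1* was called in 5 and *Smtn* in 7, and each call was lost without WT 1, WT 2, KO 1, KO 2 or KO 3. *Cnn1* also missed the threshold with the beta-globin split as a covariate (edgeR adjusted p = 0.0712), and *Smtn* with the GC trend removed (edgeR adjusted p = 0.336). The part of these cells in the myosin heavy chain levels was not tested.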

How the data were processed

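RNA from the gastrocnemius muscle of 6 mice was sequenced by the authors (HiSeq, paired ends, 100 bases a read). The labels list bcl2fastq 2.20.0, FastQC 0.11.7, HISAT2 2.1.0, Bowtie2 2.3.4.1 and StringTie 2.1.3b with genome build mm10 (GRCm38), while the reporting summary names STAR; the methods and labels also name different library kits, and different *Sirt6* flox lines are named. The read counts that the authors deposited are whole numbers per gene without normalization between libraries, and how reads shared by paralogs were assigned is not given in the sources used here. Per gene the authors deposited FPKM too, scaled to length and depth, and the TPM that the authors deposited sum to nearly the same total in each library.

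The members and all lists of genes and motifs were chosen with earlier results of these data known. The text names the 8 members, *Sirt6*, *Myl1* and the members of lists that passed the test. For each adult chain it names the 3 genes most like it. Of the neighbors within 50 kb it names those whose groups did not overlap, a choice that used their values. *Hbb-bt*, *Hbb-b2*, *Hbb-bs*, *Hbb-b1* and the listed genes that did not pass but are given with values (*Sox6*, *Unc45b*, *Actc1*, *Myl4*, *Calcr*, *Myh13*, *Myh14*) were singled out after their values were seen. 1 marker list is not reported here. Counts were tested in R 4.3.3 with edgeR 4.0.16 (filterByExpr, TMM, quasi-likelihood test, Benjamini-Hochberg adjustment over the 13801 genes tested, threshold 0.05), group being the only factor. Of the 24532 genes, 7342 had no count. CPM is TMM-normalized. Shares and ratios used TPM and two-sided exact permutation tests. P-values measure the spread between these 6 animals. The total counts of 44845763 to 63016899 per library give 1 count a value of 0.0165 to 0.0212 CPM (common BCV 24.1%). No 2 libraries of a group agreed within sampling noise.

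Alternatives were DESeq2 1.42.0, its size factors, no filter, at least 10 counts in every library, the replicate number as a block, limma 3.58.1 on FPKM (quantile normalization, log2, pseudocount 1 or 0.1), removal of a lowess trend over GC content (span 0.3, known for 96.2% of the genes tested), library sizes without the members, shares of read counts, shares without *Myh4*, and each library left out. The beta-globin split as a covariate was added after the data were seen. Identical windows and transcript identities were computed from 1 GENCODE M21 transcript per gene, and promoters and microRNAs are from RefSeq, with all 8 members matched. Motifs were searched on both strands.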

Additional observations from a re-analysis of the deposited data

How the results depend on the processing

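With 3 libraries a group, no share or ratio of chains could reach an exact permutation p under 0.1. The count of members called was 0 lower and 0 higher with edgeR, 0 lower and 1 higher (*Myh3*) with DESeq2, with at least 10 counts in every library and with the beta-globin split as a covariate (chosen after seeing the data), and from 0 to 2 lower and 0 to 2 higher when 1 library was left out, where the 2 and 2 came without WT 3. All genes called numbered 2242, against 3399 with DESeq2, 922 with the GC trend removed and from 8 (without KO 1) to 4582 (without WT 3) when 1 library was left out. With the covariate the sign turned for *Myh7* (log2 fold change 1.01) and *Myh6* (0.87). For *Myh7b* it turned with the GC trend removed (-0.13), without WT 3 (-0.41) and without KO 2 (-1.19), while it was 1.26 with the covariate and ran up to 0.98 when 1 library was left out. Leaving out 1 library moved the KO minus WT difference of log2 ratios across 0 for *Myh7* to *Myh2* (-0.88 to 1.19), *Myh7* to *Myh1* (-0.74 to 1.19), *Myh7* to *Myh4* (-2.94 to 0.34) and *Myh2* to *Myh1* (-0.010 to 0.21), and that of the *Myh7b* share of the family (-0.00398 to 0.00167 percentage points). Without *Myh4* in the sum, the differences of the *Myh7b* share (0.0261 percentage points) and of the *Myh8* share (6.55) turned above 0, which follows from the smaller sum. The cause of the other changes was not tested. The replicate numbers are not stated to pair animals: same-numbered libraries deviated together with r of -0.15, 0.359 and 0.238 over genes. With the number as a replicate block, 0 members were called lower and 0 higher, and 1922 genes in all.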
